A study of Mus musculus with 6 samples.

Results

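A set of 9 genes of MHC class I antigen presentation and of the interferon response (B2m, H2-K1, H2-D1, Tap1, Irf7, Bst2, Ifit1, Ifit3 and Isg15) were read in the adult mouse cerebellum after exposure to methylmercury before birth. They were taken by name from the gene count table, where each of the 9 names stood on 1 row of 56748, and all 9 passed the filter on low counts that left 16859 genes to test. The MeHg group was 3 C57BL/6J mice whose mothers drank water with 0.2 ppm methylmercury (MeHg), an organic mercury compound toxic to neurons, from the first day of pregnancy until birth. The Control group was 3 C57BL/6J mice whose mothers drank water with 0 ppm. The offspring of both groups were killed at 90 to 120 days of age, long after the dosing had ended, and total RNA of the whole cerebellum was sequenced. Each group held 2 mice labelled female and 1 labelled male, and no label names the dam or the litter, so litter mates cannot be told from unrelated mice and a p-value covers only the variation among these 6 animals.

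MHC class I molecules carry peptides from inside the cell to its surface, where killer T cells read them. A heavy chain pairs with a shared light chain, and the peptides reach them through a transporter in the membrane of the endoplasmic reticulum. Interferons, secreted when a cell senses foreign nucleic acid, act through receptors, JAK kinases and STAT factors, and switch on both this machinery and a set of antiviral genes. In the healthy brain neurons show little of either programme, and microglia and the cells of blood vessels and meninges hold much of it.

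Libraries held 14116088 to 20303833 counts. Control replicate 2, labelled female, had 0.249 CPM (counts scaled to the library size) of Xist and 216 CPM over 4 Y-linked genes, the pattern of a male. MeHg replicate 2 and Control replicate 3, both labelled male, had this pattern too, so by RNA the sexes were not balanced between the groups. Markers of granule cells, the small neurons that fill the cerebellar cortex, summed over 12 genes to between 5483 and 6356 CPM in MeHg libraries and between 7396 and 7877 CPM in Control libraries. Those of Purkinje cells, its output neurons, summed over 11 genes to between 7837 and 10039 CPM in MeHg and between 10063 and 10981 CPM in Control. Markers of 13 genes of the choroid plexus, the tissue that makes cerebrospinal fluid, summed to between 2635 and 10380 CPM in MeHg libraries and between 169 and 3199 CPM in Control libraries. In bulk tissue, fewer cells of a type and less RNA per cell cannot be told apart.

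None of the 9 genes differed between MeHg and Control mice at an adjusted p under 0.05. The test was edgeR's quasi-likelihood test with Benjamini-Hochberg adjustment over all 16859 genes, of which 398, or 2.36%, were called. At an unadjusted p under 0.05 edgeR named 1 of the 9, Bst2, against 24.5% of all tested genes, while DESeq2 and limma-voom named 1 and 2 and also called 0 after adjustment. Of the 9, 7 had a positive fold change, as had 51.1% of all tested genes, and 2 a negative one. The median log2 fold change, MeHg over Control, was 0.15 over the 9 genes and 0.01 over all tested genes. In 3 genes, Tap1, Irf7 and Bst2, all 3 MeHg libraries lay above all 3 Control libraries in CPM, and in 0 genes below. Over all tested genes 13.9% lay wholly above and 29.4% lay wholly on either side.

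The levels of the 9 genes differed widely. On the authors' FPKM scale, which divides by gene length, B2m averaged 68.1 FPKM over the 6 libraries and H2-D1 54.8 FPKM. H2-K1 followed at 9.39 FPKM, Ifit3 at 6.15 FPKM and Bst2 at 4.91 FPKM. Ifit1 stood at 1.41 FPKM, Isg15 at 1.29 FPKM, Tap1 at 0.557 FPKM and Irf7 at 0.504 FPKM. The ranges over libraries overlapped between B2m and H2-D1, between Ifit3 and Bst2, between Ifit1 and Isg15, and between Tap1 and Irf7, so those neighbours are not ordered beyond their spread. The other neighbours in that order were separated in all 6 libraries. Among the 9, the light chain and the H2-D1 heavy chain thus had the highest levels, and the transporter subunit and the interferon transcription factor the lowest.

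**Figure D1:**
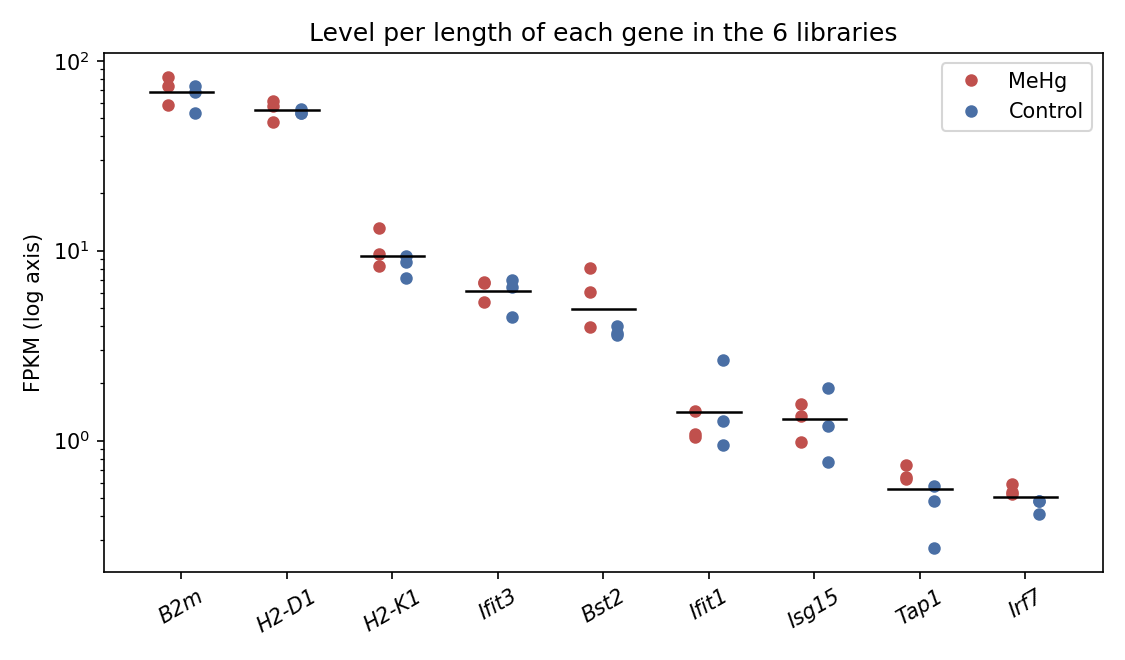
FPKM, on a log axis, of each of the 9 genes in each library, with MeHg libraries to the left of Control libraries and a line at the mean of all 6. B2m and H2-D1 lie near 68.1 and 54.8 FPKM, and Tap1 and Irf7 lie lowest at 0.557 and 0.504 FPKM.

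B2m encodes beta-2-microglobulin, the light chain that every class I molecule needs to reach the surface (ENSMUSG00000060802, chromosome 2, 121978167 to 121983564, plus strand, mm39). It was at 67.8, 54.0 and 75.6 CPM in MeHg replicates 1, 2 and 3, and at 66.9, 62.5 and 48.5 CPM in Control replicates 1, 2 and 3. CPM here is the count relative to the library size scaled by TMM, edgeR's correction for composition. MeHg replicate 3 was highest and Control replicate 3 lowest, and the groups overlapped. The means were 65.8 ± 10.9 CPM in MeHg and 59.3 ± 9.58 CPM in Control (SD, n = 3 each), a log2 fold change of 0.15 ± 0.14 (SE, edgeR adjusted p = 0.569). The 95% interval of the fold, MeHg over Control, ran from 0.884 to 1.39.

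H2-K1 and H2-D1 encode the classical heavy chains, the polymorphic part that binds the peptide. H2-K1 (ENSMUSG00000061232, chromosome 17, 34214991 to 34219321, minus strand) was at 30.1, 26.3 and 41.2 CPM in MeHg, against 29.2, 27.5 and 22.5 CPM in Control replicates 1, 2 and 3. As with B2m, MeHg replicate 3 stood highest and Control replicate 3 lowest, and the groups overlapped. Its means were 32.5 ± 7.73 CPM in MeHg and 26.4 ± 3.47 CPM in Control (SD, n = 3 each), with a log2 fold change of 0.30 ± 0.17 (SE, edgeR adjusted p = 0.308). Its size rested on single libraries: it was 0.0972 without MeHg replicate 3, 0.197 without Control replicate 3 and 0.437 without MeHg replicate 2.

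H2-D1 (ENSMUSG00000073411, chromosome 17, 35481706 to 35486475, plus strand) was at 159, 133 and 168 CPM in MeHg, against 152, 147 and 146 CPM in Control. The Control libraries were close together, and the MeHg libraries held both the highest and the lowest value of the 6. The means were 153 ± 18.3 CPM in MeHg and 148 ± 3.29 CPM in Control (SD, n = 3 each), and the log2 fold change was 0.05 ± 0.08 (SE, edgeR adjusted p = 0.776). With a 95% interval of the fold from 0.905 to 1.18, H2-D1 was the most narrowly measured of the 9.

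The promoters of these heavy chain genes are shown because they share a block that in class I genes is known to bind NF-kappa-B and interferon regulatory factors. The RefSeq windows (table built on GRCm38.p6, placed on GRCm39 by exact match) run from 250 bases before to 50 bases after the annotated start. Set side by side without gaps, 176 of 240 bases were identical, and the longest identical run had 47 bases. Below are 90 bases of each on the gene's own strand, at chr17:34219373-34219462 for H2-K1 and at chr17:35481869-35481958 for H2-D1, with the 2 differing bases in capitals.
H2-K1: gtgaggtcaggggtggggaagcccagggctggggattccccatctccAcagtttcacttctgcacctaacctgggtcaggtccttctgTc
H2-D1: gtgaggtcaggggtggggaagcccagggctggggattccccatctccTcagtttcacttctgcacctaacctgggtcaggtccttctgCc
In the annotated transcripts 0.124% of the 150-base stretches of H2-K1 and 0.643% of those of H2-D1 also occurred in another gene, most often H2-Q10 and H2-Q1. Noncoding genes on the opposite strand cover 26.8% of the exon bases of H2-K1 and 24.2% of those of H2-D1. The strand handling of the counts is not given in the sources used here, so reads of such pairs cannot be told apart.

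Tap1 encodes a subunit of the peptide transporter that feeds class I molecules (ENSMUSG00000037321, chromosome 17, 34406527 to 34416199, plus strand). It was at 3.77, 3.73 and 4.31 CPM in MeHg, against 3.35, 2.79 and 1.58 CPM in Control. The MeHg libraries were close together, and the spread of Control came mostly from replicate 3, which held 22 counts. The means of 3.94 ± 0.326 CPM in MeHg and 2.57 ± 0.904 CPM in Control (SD, n = 3 each) gave a log2 fold change of 0.59 ± 0.28 (SE, edgeR adjusted p = 0.225). Without Control replicate 3 it was 0.36. The exact Poisson 95% interval ran from 3.32 to 5.51 CPM in MeHg replicate 3 and from 2.59 to 4.26 CPM in Control replicate 1. These overlapped, while the interval of Control replicate 3, 0.991 to 2.39 CPM, lay below both. Counting error alone thus does not cover the spread of the libraries. The immunoproteasome gene Psmb9 lies on the opposite strand and overlaps 12.4% of the exon bases of Tap1.

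Irf7 encodes the transcription factor that amplifies type I interferon production (ENSMUSG00000025498, chromosome 7, 140842619 to 140846394, minus strand). It was at 2.10, 2.42 and 2.16 CPM in MeHg, against 1.93, 1.95 and 1.65 CPM in Control. These values came from 23 to 39 counts a library. The groups did not overlap, but the step between the nearest libraries was small: the exact Poisson interval of MeHg replicate 1, 1.46 to 2.94 CPM, covered all 3 Control values. The means were 2.23 ± 0.170 CPM in MeHg and 1.84 ± 0.164 CPM in Control (SD, n = 3 each), a log2 fold change of 0.27 ± 0.23 (SE, edgeR adjusted p = 0.520).

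Bst2 encodes tetherin, a membrane protein that holds budding virus particles at the cell surface (ENSMUSG00000046718, chromosome 8, 71986899 to 71990100, minus strand). It was at 5.87, 3.86 and 7.82 CPM in MeHg, against 3.85, 3.54 and 3.45 CPM in Control. MeHg replicates 1 and 3 stood apart above the rest, while MeHg replicate 2 was level with Control replicate 1 and lay below it on the FPKM scale (3.96 against 4.02 FPKM). The means were 5.85 ± 1.98 CPM in MeHg and 3.62 ± 0.212 CPM in Control (SD, n = 3 each). The log2 fold change was 0.69 ± 0.26 (SE, edgeR adjusted p = 0.149), and the 95% interval of the fold was 1.08 to 2.41. Bst2 was the member whose call depended on a library: without MeHg replicate 2 it was 0.92 (edgeR adjusted p = 0.0318), and without MeHg replicate 3 it was 0.43 (edgeR adjusted p = 0.386).

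Ifit1 and Ifit3 encode tetratricopeptide proteins made after interferon, the first of which binds foreign RNA by its unmodified cap, and lie on chromosome 19 with the copy Ifit3b between them. Ifit1 (ENSMUSG00000034459, 34618271 to 34627409, plus strand) was at 3.09, 3.01 and 4.04 CPM in MeHg, against 7.46, 2.69 and 3.59 CPM in Control. Control replicate 1 stood apart with 147 counts, an exact Poisson 95% interval of 6.30 to 8.76 CPM that no other library's interval reached, and the other 5 libraries overlapped. The means were 3.38 ± 0.575 CPM in MeHg and 4.58 ± 2.53 CPM in Control (SD, n = 3 each), a log2 fold change of -0.45 ± 0.36 (SE, edgeR adjusted p = 0.488). Without Control replicate 1 the sign turned, to 0.12 (edgeR adjusted p = 0.854).

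Ifit3 (ENSMUSG00000074896, 34560931 to 34566131, plus strand) was at 10.02, 12.69 and 12.74 CPM in MeHg replicates 1, 2 and 3, against 11.97, 12.97 and 8.34 CPM in Control. The high value of Ifit1 in Control replicate 1 had no counterpart in Ifit3, whose lowest library was Control replicate 3. Isg15 did have its highest value in Control replicate 1. So had 12 of the 58 tested genes on a list of other interferon-stimulated genes, or 20.7%, beside 15.0% of all tested genes. Of the same 58, 25 were highest in MeHg replicate 3. The means were 11.8 ± 1.56 CPM in MeHg and 11.1 ± 2.44 CPM in Control (SD, n = 3 each), with a log2 fold change of 0.08 ± 0.18 (SE, edgeR adjusted p = 0.821). Of the 150-base stretches of Ifit3, 9.16% were shared with its copy Ifit3b, so its level is uncertain by the way such reads were counted.

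Isg15 encodes a ubiquitin-like protein that is linked to other proteins after interferon (ENSMUSG00000035692, chromosome 4, 156283912 to 156285253, minus strand). It was at 0.742, 1.18 and 1.01 CPM in MeHg, against 1.42, 0.898 and 0.575 CPM in Control. These rest on 12, 18 and 15 counts in MeHg and 28, 18 and 8 counts in Control, and Control libraries held both the highest and the lowest value. The means were 0.977 ± 0.220 CPM in MeHg and 0.964 ± 0.427 CPM in Control (SD, n = 3 each), a log2 fold change of -0.01 ± 0.40 (SE, edgeR adjusted p = 0.987). The 95% interval of its fold, MeHg over Control, was wide, from 0.533 to 1.84. A noncoding gene on the opposite strand covers 31.1% of its exon bases.

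**Figure D2:**
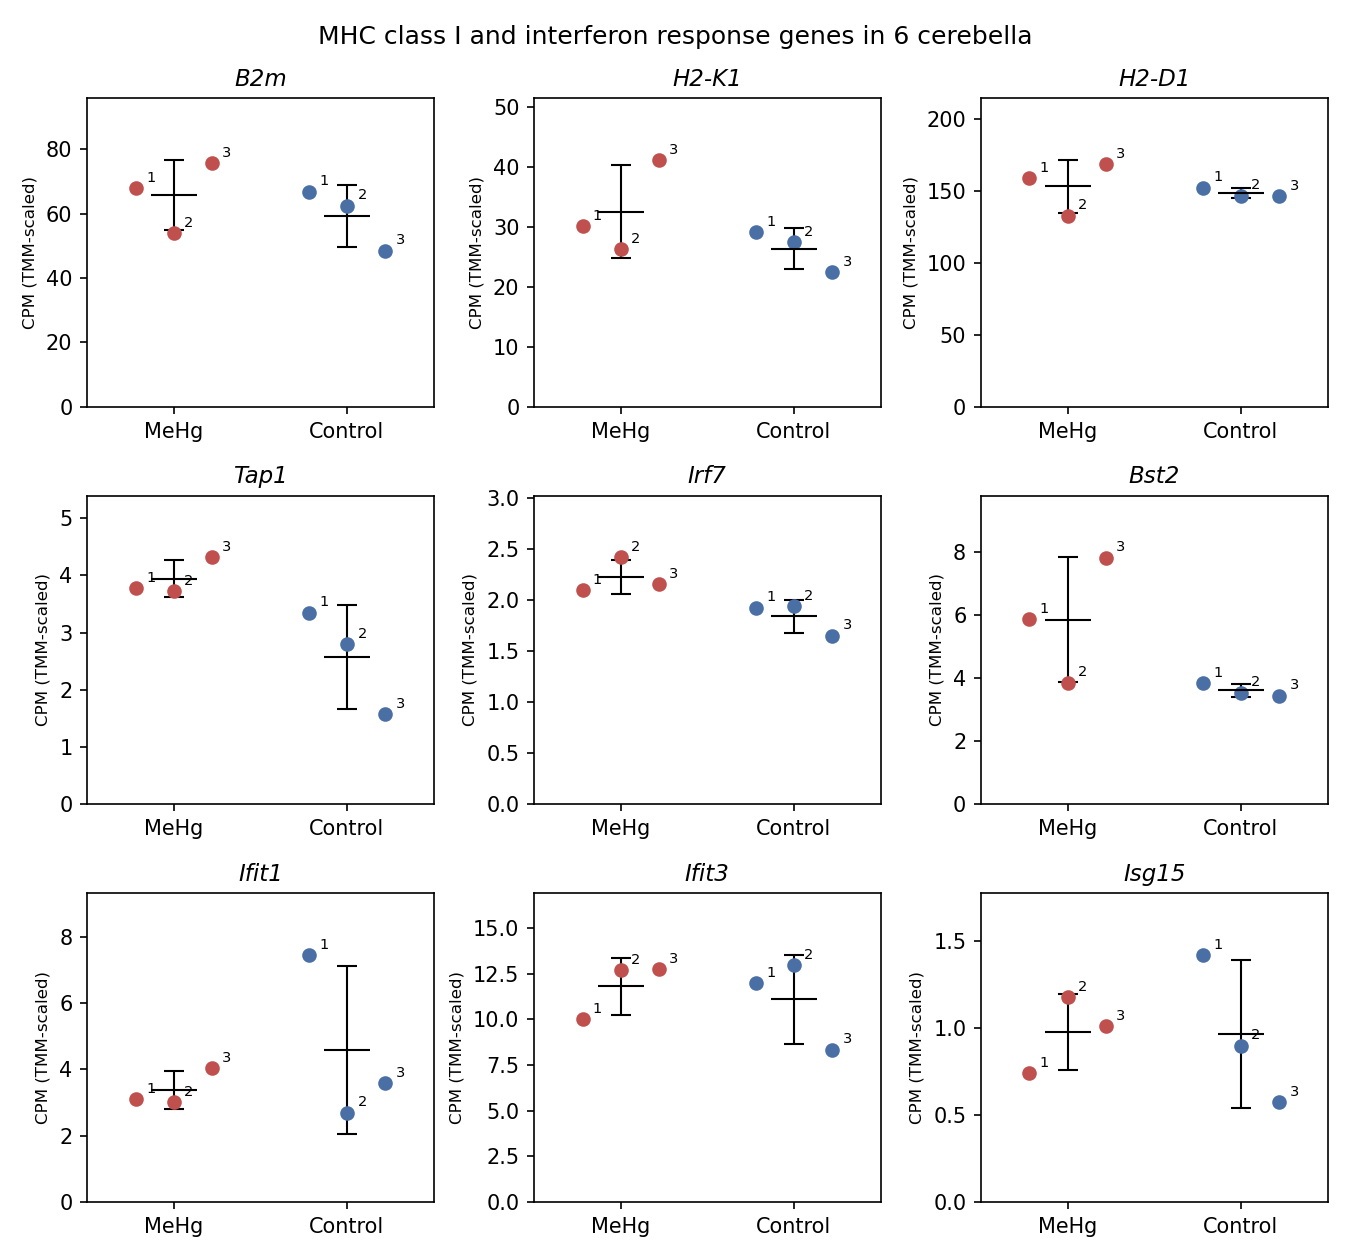
CPM of the 9 genes in each library, numbered by replicate, with MeHg left of Control; bars mark the mean and SD of 3 libraries and every axis starts at 0. The groups overlap except in Tap1, Irf7 and Bst2, and 1 Control library at 7.46 CPM sets the spread of Ifit1.

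**Figure D3:**
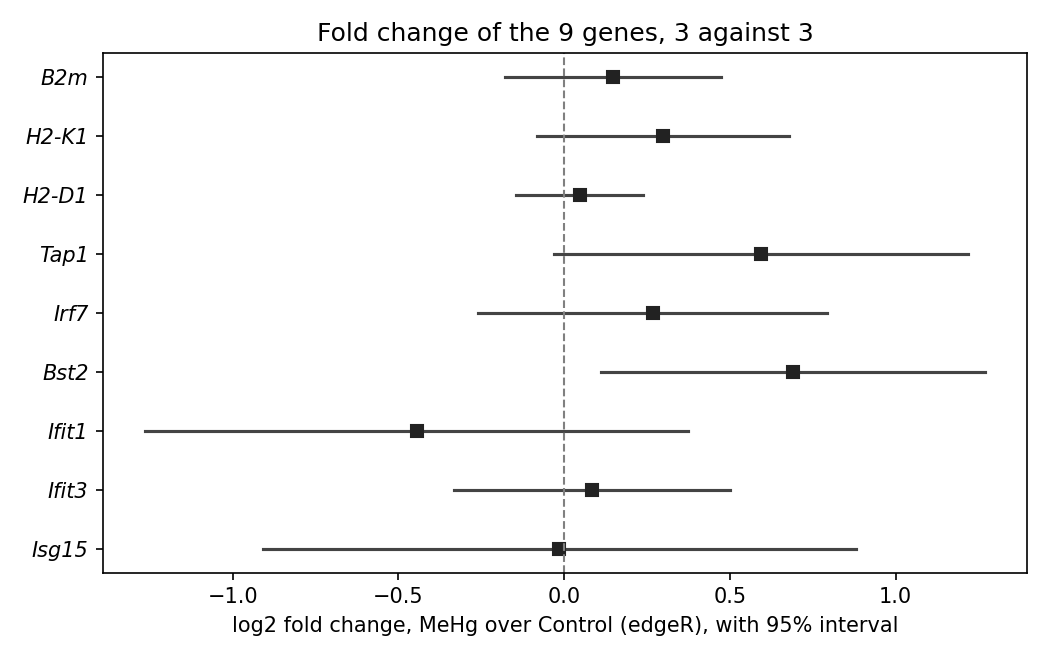
Log2 fold change, MeHg over Control, of each gene from the edgeR fit (squares) with its 95% interval (lines). Bst2, at 0.69, is the gene whose interval leaves out 0, and H2-D1, at 0.05, has the narrowest interval.

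The interferon-stimulated response element, the site bound by interferon-activated STAT complexes and interferon regulatory factors, was searched in the promoter windows on both strands as its core, the letters GAAA, any 2 bases, and GAAA again. It was present in 5 of the 9 genes, B2m, Bst2, Ifit1, Ifit3 and Isg15, and in 3.99% of 27025 genes with a window. The stretches that hold it are shown to set these matches side by side. They are given on the gene's own strand, with 20 bases around the matches and the matches in capitals. Ifit1 and Ifit3 have the element on the opposite strand, so it reads there as its reverse complement, and the matches of Bst2 and of Isg15 overlap one another.
B2m: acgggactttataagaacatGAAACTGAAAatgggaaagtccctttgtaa
Bst2: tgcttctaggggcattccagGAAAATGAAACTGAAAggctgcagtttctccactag
Ifit1: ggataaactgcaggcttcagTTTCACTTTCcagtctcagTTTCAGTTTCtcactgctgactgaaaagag
Ifit3: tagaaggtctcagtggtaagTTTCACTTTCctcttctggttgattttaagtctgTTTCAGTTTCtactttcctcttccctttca
Isg15: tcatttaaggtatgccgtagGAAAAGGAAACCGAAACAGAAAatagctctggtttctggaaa
On GRCm39 they lie at chr2:121978009-121978058 for B2m, chr8:71990211-71990266 for Bst2, chr19:34618165-34618233 for Ifit1, chr19:34560753-34560836 for Ifit3 and chr4:156285312-156285373 for Isg15. B2m and Bst2 held 1 and 2 matches, Ifit1 and Ifit3 held 2 each, and Isg15 held 3. The first and last bases of the matches lay between 156 and 57 bases before the start. The gamma-activated site, searched as TTC and GAA with any 3 bases between, was present in Bst2 alone among the 9 and in 9.55% of the genes with a window. A match is a description of the letters, and its absence says only that these letters are not in the window.

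Single libraries stood high or low over several of the 9 genes. Control replicate 3 was the lowest library for 7 of the 9 and MeHg replicate 3 the highest for 5 of the 9, whereas over all tested genes these libraries were the lowest for 19.5% and the highest for 19.5%. In Control replicate 3 the departure from the gene mean on the log2 scale was largest for Tap1 (-0.96) and Isg15 (-0.66), and smallest for H2-D1 (-0.04) and Ifit1 (-0.05). In MeHg replicate 3 it was largest for Bst2 (0.79), H2-K1 (0.51) and Tap1 (0.47). MeHg replicate 2 was below the gene mean for B2m, H2-K1, H2-D1, Bst2 and Ifit1 (-0.20, -0.14, -0.18, -0.22 and -0.31) and above it for Tap1, Irf7, Ifit3 and Isg15 (0.26, 0.26, 0.17 and 0.33). The 9 genes thus did not order the libraries in 1 way.

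**Figure D4:**
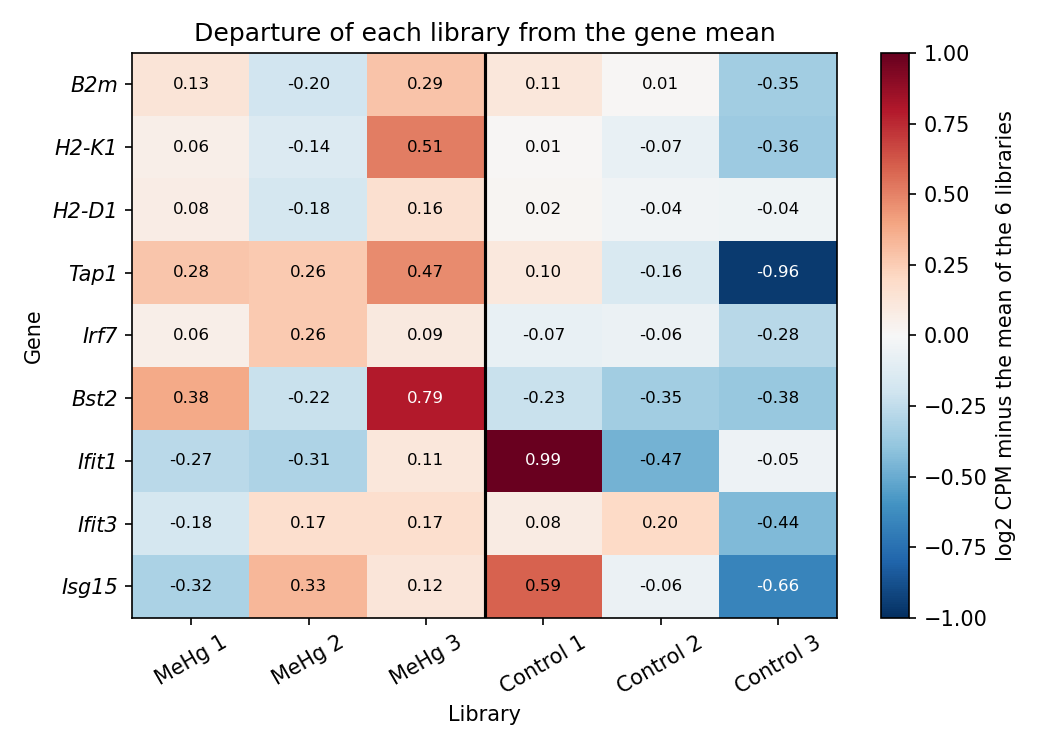
Log2 CPM of each gene (rows) in each library (columns, MeHg left of Control) minus the mean of the 6 libraries. Control replicate 3 is low in most rows, down to -0.96 for Tap1, and the high values of 0.99 for Ifit1 and 0.59 for Isg15 stand in Control replicate 1.

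Markers of other cells moved with these libraries, and their part in the values was not tested. The 15 endothelial markers, genes of the vessel lining, summed to between 328 and 386 CPM in MeHg and between 296 and 310 CPM in Control, with the highest sum in MeHg replicate 3 and the lowest in Control replicate 3. Of these, Ly6a and Ly6c1 are also on the list of interferon-stimulated genes. The 13 choroid plexus markers had their extremes in the same libraries, at 10380 and 169 CPM. The 15 microglia markers summed to between 184 and 226 CPM in MeHg and between 159 and 176 CPM in Control, lowest again in Control replicate 3 but highest in MeHg replicate 2. Of these 3 lists all members had a positive fold change, as had 51.1% of all tested genes. Over the 3 lists 1 gene passed the edgeR test, the endothelial Flt1, a receptor for vascular growth factor, beside 2.36% of all tested genes. Flt1 was at 38.7 ± 2.17 CPM in MeHg, against 28.4 ± 1.72 CPM in Control (SD, n = 3 each; edgeR adjusted p = 0.0440).

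Ependymal markers, genes of the ciliated cells that line the ventricles, had higher sums in every MeHg library than in any Control library. The 9 genes summed to between 47.2 and 73.6 CPM in MeHg and between 21.6 and 31.6 CPM in Control, 8 lay wholly above Control in MeHg, and 9 had an unadjusted p under 0.05. Foxj1, a transcription factor of motile cilia (log2 fold change 1.17, edgeR adjusted p = 0.0431), and Rsph1, a part of the ciliary spoke (1.68, edgeR adjusted p = 0.0433), passed as higher in MeHg. The 14 markers of mural cells and of fibroblasts, which also lie in the meninges, summed to between 285.7 and 364.1 CPM in MeHg and between 249.4 and 298.8 CPM in Control, highest in MeHg replicate 3. Of 13 tested, 11 had a positive fold change, 4 lay wholly above Control and 0 were called by edgeR, with 6 at an unadjusted p under 0.05. Of the 12 granule cell markers 5 passed as lower in MeHg (Gabra6, Fat2, Zic1, Etv1 and Pax6), and 10 lay wholly below Control. Of the 11 Purkinje cell markers 0 were called by edgeR, with 4 at an unadjusted p under 0.05. Of these 11, 3 lay wholly below Control and 1 wholly above, and 2 had a positive fold change. Over all tested genes edgeR called 2.36%, and 24.5% had an unadjusted p under 0.05. Of all tested genes 13.9% lay wholly above Control in MeHg, and 29.4% lay wholly on either side.

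T and NK cell markers were low, with sums of 4.88 to 5.73 CPM in MeHg and 3.88 to 5.44 CPM in Control. Of 12 listed genes 2 were tested and held most of these counts. Trac, a T cell receptor constant region, was at 2.47, 2.36 and 3.10 CPM in MeHg, against 1.62, 2.10 and 2.08 CPM in Control, wholly above it in MeHg (0.45 ± 0.24, SE, edgeR adjusted p = 0.289). Ptprc, the CD45 gene of all white blood cells and microglia, overlapped between the groups (0.05 ± 0.32, edgeR adjusted p = 0.943). The other 10, Cd3e, Cd3d and Cd8a among them, had 63 counts in all over 6 libraries. Border-associated macrophage markers (7 genes, 9.03 to 10.4 CPM in MeHg and 7.76 to 10.7 CPM in Control) overlapped between the groups.

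The other genes of the class I pathway did not pass either. Of 25 listed genes 23 were tested by edgeR and 0 were called, beside 2.36% of all tested genes. An unadjusted p under 0.05 was reached by 7, beside 24.5% of all tested genes. The median log2 fold change of the 23 was 0.22, against 0.01 over all tested genes. Of the 23, 17 had a positive fold change, and in 6 genes all MeHg libraries lay above Control, beside 13.9% of all tested genes, and in 1, Ide, below. Psme1, a subunit of the proteasome activator induced by interferon gamma, was at 19.2, 23.5 and 23.7 CPM in MeHg, against 16.7, 17.0 and 14.4 CPM in Control. Its groups did not overlap, and its log2 fold change was 0.46 ± 0.12 (SE, edgeR adjusted p = 0.0721). The nonclassical heavy chain H2-T22 was at 25.9 ± 0.821 CPM in MeHg, against 21.5 ± 0.353 CPM in Control (SD, n = 3 each; 0.27 ± 0.08, SE, edgeR adjusted p = 0.110). Tapbp, the tapasin that bridges class I molecules to the transporter, was at 30.9 ± 0.805 CPM in MeHg, against 26.6 ± 1.06 CPM in Control (0.22 ± 0.08, edgeR adjusted p = 0.156).

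Interferons themselves were not detectable at this depth. Of 19 listed interferon genes 16 had 0 counts in all 6 libraries, and the other 3, Ifnab, Ifnz and Ifng, had 6 counts together. A count of 0 allows up to 3 counts a library, or 0.202 CPM in MeHg replicate 3 and 0.216 CPM in Control replicate 3, the shallowest of each group. Of 25 receptor and signalling genes 24 were tested and 0 were called by edgeR, beside 2.36% of all tested genes. An unadjusted p under 0.05 was reached by 6, beside 24.5% of all tested genes. Their median log2 fold change was -0.08, with 11 positive. All MeHg libraries lay above Control in 3 genes and below in 5, beside 29.4% of all tested genes on either side. Jak2, a kinase of the interferon gamma receptor, had the smallest p: it was at 46.0, 47.8 and 43.5 CPM in MeHg, against 55.5, 58.5 and 58.7 CPM in Control. All MeHg libraries of Jak2 lay below all Control libraries (-0.33 ± 0.07, SE, edgeR adjusted p = 0.0507). Stat2, a part of the complex that binds the response element, was at 76.3 ± 2.45 CPM in MeHg, against 93.2 ± 6.33 CPM in Control (SD, n = 3 each; -0.29 ± 0.07, SE, edgeR adjusted p = 0.0604). Pias1 was at 61.2 ± 2.74 CPM in MeHg, against 74.0 ± 0.802 CPM in Control (-0.27 ± 0.06, edgeR adjusted p = 0.0571). DESeq2 called these 3 as lower and Psme1 as higher in MeHg, and limma-voom called 0 genes of the lists.

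Sensors of nucleic acid and their adaptors were mixed. Of 24 listed symbols 22 were in the table and 18 were tested. edgeR called 0, beside 2.36% of all tested genes, and had 3 at an unadjusted p under 0.05, beside 24.5% of all tested genes. The median log2 fold change of the 18 was 0.08, with 11 positive. The kinase Tbk1, which activates interferon regulatory factors, was at 48.1 ± 1.06 CPM in MeHg, against 56.1 ± 3.57 CPM in Control (SD, n = 3 each; -0.22 ± 0.07, SE, edgeR adjusted p = 0.122). Trim25, a ubiquitin ligase of the RIG-I pathway (0.54 ± 0.19, edgeR adjusted p = 0.129), and Unc93b1, the escort of endosomal Toll-like receptors (0.38 ± 0.14, edgeR adjusted p = 0.142), had positive fold changes. The exonuclease gene Trex1 was listed at 0 in all 6 libraries, and 100% of its exon bases lie in exons of Atrip on the same strand, so its 0 says nothing of its level.

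Of 74 other interferon-stimulated genes 58 were tested, and 3 of them had an unadjusted p under 0.05, beside 24.5% of all tested genes. edgeR called 0 of the 58, beside 2.36% of all tested genes. Their median log2 fold change was 0.12 and 40 were positive, while 4 lay wholly above Control in MeHg, beside 13.9% of all tested genes, and 0 wholly below. Control replicate 3 was the lowest library for 27 of the 58 and MeHg replicate 3 the highest for 25, and their summed CPM ran from 441 to 505 in MeHg and from 385 to 451 in Control. The GTPases Igtp (0.58 ± 0.23, edgeR adjusted p = 0.165) and Gbp9 (0.60 ± 0.24, edgeR adjusted p = 0.172) and the interferon-induced Ifi27 (0.62 ± 0.25, edgeR adjusted p = 0.176) had the smallest p. The 3 highest of the list by CPM had smaller fold changes, although per length Ifi27, at 16.3 FPKM, came next to Ly6e, at 18.0 FPKM. Ly6e was at 75.6 ± 3.33 CPM in MeHg, against 69.5 ± 2.63 CPM in Control (SD, n = 3 each; 0.12 ± 0.07, SE, edgeR adjusted p = 0.293), and Shisa5 and Pnpt1 had log2 fold changes of 0.20 and -0.04.

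MHC class II genes, the set that presents outside peptides and is made mainly by macrophages and microglia in the brain, were at low levels. Of 10 listed genes 7 were tested and 0 were called by edgeR, beside 2.36% of all tested genes. An unadjusted p under 0.05 was reached by 1, beside 24.5% of all tested genes. The median log2 fold change was 0.56, with 6 positive. H2-DMb1, a chain of the peptide-loading factor, was at 1.67, 0.981 and 1.69 CPM in MeHg, against 0.710, 0.499 and 0.144 CPM in Control. All 3 MeHg libraries of it lay above Control (1.60 ± 0.48, SE, edgeR adjusted p = 0.0951). H2-Aa (0.70 ± 0.34, edgeR adjusted p = 0.241) and the invariant chain Cd74 (0.56 ± 0.30, edgeR adjusted p = 0.292) overlapped between the groups and were highest in MeHg replicate 3 and lowest in Control replicate 3.

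**Figure D5:**
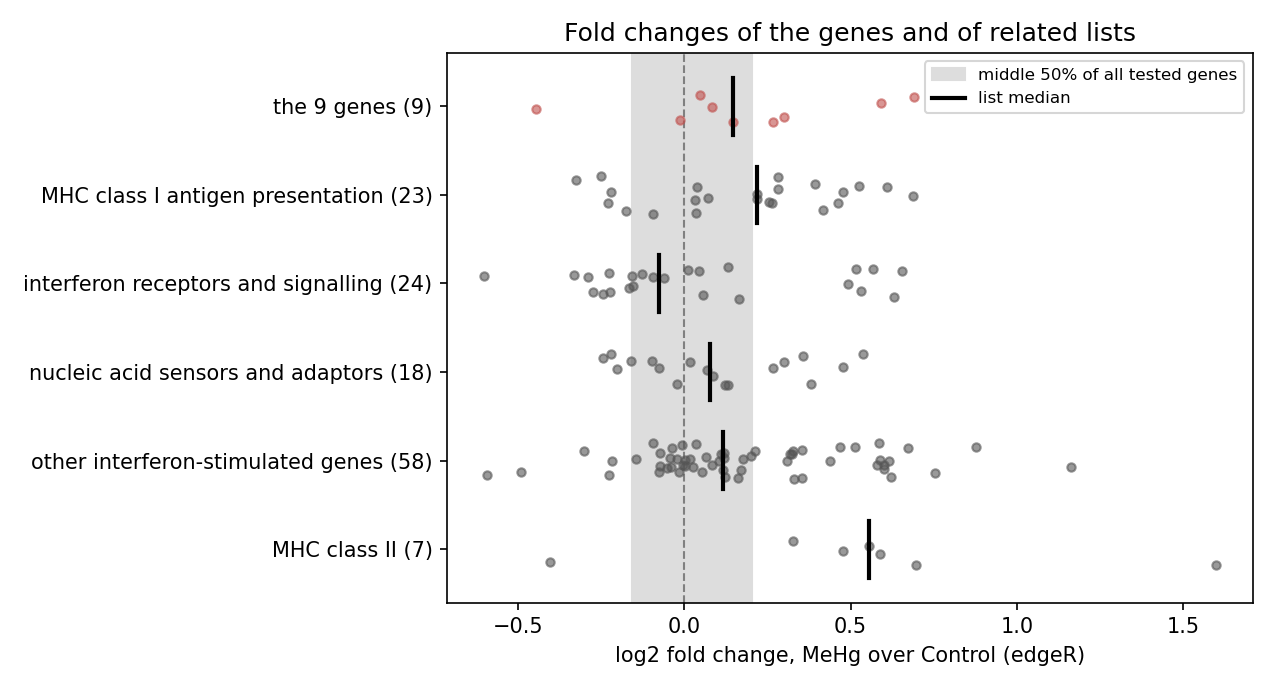
Log2 fold change, MeHg over Control, of the 9 genes (top row) and of the tested genes of 5 related lists (points), with the list median (bar) and the middle 50% of all tested genes (grey, -0.16 to 0.20). The medians of the 9 genes, 0.15, of the receptors, -0.08, of the sensors, 0.08, and of the interferon-stimulated genes, 0.12, lie inside the grey band, and those of class I presentation, 0.22, and class II, 0.56, to its right.

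The genes whose levels followed the pattern of 2 of the 9 most closely were found among 11528 tested genes with a mean of at least 5 CPM, by the root mean square difference of log2 CPM over the 6 libraries after centring. For H2-D1, the most abundant by CPM, they were Tvp23b, Cactin and Ift20, with differences of 0.0194, 0.0199 and 0.0225. For Ifit1, the one with the widest range, they were Thbs1, Prps1l3 and Pdia4, with larger differences of 0.227, 0.268 and 0.277. Ifit1 itself, at 3.38 CPM in MeHg and 4.58 CPM in Control, lay below the limit of 5 CPM. Interferon-stimulated genes at such low levels, Isg15 and Irgm2 among them, were not candidates. Thbs1 was also highest in Control replicate 1, at 15.5 CPM, with 8.72, 5.04 and 9.84 CPM in MeHg and 5.89 and 7.91 CPM in Control replicates 2 and 3.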

How the data were processed

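The tests used the whole-number read counts that the authors deposited, which are not normalised, and levels between genes used the FPKM that the authors computed from them. Reads were paired, of 150 bases, with mm39 as reference, per the labels' protocols. DESeq2 is named in the submitters' processing notes. The labels and headers name no aligner, counting program, annotation release or strand setting. The contrast of MeHg over Control was fitted to the 6 libraries with edgeR 4.0.16 in R 4.3.3 (filterByExpr, TMM, quasi-likelihood F test, group as the only term), with Benjamini-Hochberg adjustment over all 16859 tested genes. The SE is the log2 fold change divided by the square root of F. Replicate numbers were not used as pairs, because the labels do not say that they pair samples. Deviations of same-numbered libraries correlated at 0.19, 0.34 and -0.24, which does not settle whether they do. The members, lists and tests were chosen with earlier results of these data known. Genes named outside the 9 are the called genes of each list, the 3 with the smallest p of each pathway list and the 3 interferon-stimulated genes highest by CPM; Ide, Trex1 and the T and NK cell and interferon genes were chosen after their values were seen. Alternatives used DESeq2 1.42.0, limma 3.58.1 (voom, or log2 FPKM with 1 or 0.1 added), other scalings and filters, sex, replicate number, a gene length offset and left-out libraries. The edgeR step was tested on simulated data. Counting intervals are exact Poisson and cover counting error only. Promoters are RefSeq windows; all 9 genes matched by symbol, H2-K1 with 2 windows, the first of which is used. Gene overlaps and shared stretches are from GENCODE vM39 on GRCm39, the build of the files.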

Additional observations from a re-analysis of the deposited data

How the results depend on the processing

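Of the 9 genes 0 were called under each of the 20 alternatives except 2: 1 gene, Bst2, passed without MeHg replicate 2 (log2 fold change 0.92, adjusted p = 0.0318), so leaving out 1 library gave 0 to 1 calls, and 1, again Bst2, passed with both libraries numbered 2 left out (0.90, adjusted p = 0.0399), an alternative chosen after seeing the data. Over all genes the count of calls, 398, was 197 with upper-quartile scaling, 2378 without a filter on low counts, 609 with labelled sex as a term, 166 in the libraries labelled female, 1379 with DESeq2, 0 with limma on log2 FPKM with 1 or 0.1 added, 1653 at an adjusted p under 0.1, 0 with an offset for gene length, 1723 with both libraries numbered 2 left out, and 0 to 1091 leaving out 1 library. The alternatives with sex take Control replicate 2 as female, against its RNA, so they do not correct for the sex that the RNA shows; without that library 220 genes and 0 of the 9 were called. With the replicate block the count over all genes was 648, and 0 of the 9 genes passed. The labels do not say whether the numbers pair the samples. Of the genes in the other pathway lists, none of which passed, 7 passed without a filter, 1 (Jak2) with sex as a term, 4 with DESeq2, 5 at an adjusted p under 0.1, 6 with both libraries numbered 2 left out, and 0 to 3 leaving out 1 library.

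The sign of 4 genes turned, 3 of them near 0 and the fourth Ifit1, at -0.45. H2-D1 was at -0.0219 without MeHg replicate 3 and -0.0173 with the length offset, and Ifit3 at -0.136 in the libraries labelled female and -0.00786 with the length offset. Leaving out 1 library, H2-D1 ranged from -0.0219 to 0.148, Ifit3 from -0.0805 to 0.209, Ifit1 from -0.725 to 0.119 and Isg15 from -0.249 to 0.378, with the turned values of Ifit3 without Control replicate 3, of Ifit1 without Control replicate 1, and of Isg15 without MeHg replicate 1 (0.153) or Control replicate 1. Isg15 was at 0.0234 with upper-quartile scaling, 0.0121 with sex as a term, 0.0282 with the replicate block, 0.0344 with limma-voom, and 0.0267 and 0.0693 on log2 FPKM with 1 and 0.1 added; with a filter at 1 CPM it was not tested. The cause was not tested. B2m, H2-K1, Tap1, Irf7 and Bst2 were positive under all 20 alternatives, B2m between 0.02 and 0.31 and Tap1 between 0.22 and 0.83. The counts of Isg15, Irf7 and Tap1 were low, at 8 to 66 a library.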
